A study of Mus musculus with 2 samples.

Results

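Mouse globin genes are described here through all 15 array probe sets whose annotated symbols include one that begins with Hba-, Hbb- or Hbq1, out of 45037 probe sets on the array. Of these, 4 carry the names of several adult genes and 11 carry 1 name. No probe set carried a theta symbol (Hbq1a or Hbq1b), so that chain is not described. RNA was measured on Affymetrix 3' arrays in 2 sorted samples from spleens of C57BL/6 mice with hepatocellular carcinoma, 1 array each. One sample held Ter119+CD45- cells, Ter119 being found on the surface of red cells and of their late precursors. It is called CD45-negative below. The control held CD45+ cells, CD45 being the common surface protein of white cells, from the same animals. Whether Ter119 was used to gate the control, the age of the animals, the way the tumours arose and any pooling are not given in the sources used here, and mice without a tumour were not part of the comparison. The comparison addresses how the erythroid cells of the spleen differ from its white cells, and there was no replicate, so no difference could be tested or set against a spread between replicates.

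Haemoglobin is a tetramer of alpha-type and beta-type chains, each of which holds a haem group that binds oxygen. The alpha-type genes lie in a cluster on chromosome 11 and the beta-type genes in a cluster on chromosome 7, and each cluster is driven by distant enhancers. In mice the embryonic chains, zeta (Hba-x), epsilon-y (Hbb-y) and beta-H1 (Hbb-bh1), are made mainly by the first red cells, which arise in the yolk sac. The adult chains (Hba-a1, Hba-a2 and the adult Hbb genes) are made by red cell precursors of the fetal liver, the bone marrow and, in mice, also the spleen. Adult globin genes are recent duplicates with near-identical transcripts, so a short probe often cannot tell the copies apart. C57BL/6 mice carry the haplotype with the genes Hbb-bs and Hbb-bt, whereas Hbb-b1 and Hbb-b2 are the adult genes of the other common haplotype.

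How alike the copies are is visible in their promoters, which RefSeq gives in build GRCm38.p6 for 6 of the 9 member symbols. Shown are the 120 bases before each start, 5′ to 3′, because they set the duplicated adult genes beside 2 embryonic ones. Capitals mark matches, on either strand and where adjacent or overlapping merged, to CCAAT (a general promoter box), CACCC (the core of the motif that Klf1 binds), GATAA (the core of the motif that Gata1 binds) and TATAA (the TATA box).
Hba-a1, chr11:32283552-32283671, plus strand: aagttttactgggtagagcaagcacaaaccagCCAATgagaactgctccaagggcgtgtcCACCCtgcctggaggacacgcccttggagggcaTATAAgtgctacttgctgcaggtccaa
Hba-a2, chr11:32296372-32296491, plus strand: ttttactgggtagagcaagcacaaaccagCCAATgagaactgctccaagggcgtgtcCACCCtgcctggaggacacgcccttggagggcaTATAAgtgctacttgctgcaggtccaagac
Hbb-bs, chr7:103827929-103828048, minus strand: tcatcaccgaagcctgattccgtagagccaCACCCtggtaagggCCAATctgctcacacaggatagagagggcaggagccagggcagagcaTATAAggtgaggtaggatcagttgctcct
Hbb-bt, chr7:103813924-103814043, minus strand: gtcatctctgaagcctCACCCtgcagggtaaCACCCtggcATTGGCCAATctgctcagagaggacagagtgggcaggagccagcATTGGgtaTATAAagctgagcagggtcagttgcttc
Hba-x, chr11:32276480-32276599, plus strand: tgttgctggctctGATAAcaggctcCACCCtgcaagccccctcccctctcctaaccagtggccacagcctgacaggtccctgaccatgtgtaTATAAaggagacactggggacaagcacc
Hbb-y, chr7:103853208-103853327, minus strand: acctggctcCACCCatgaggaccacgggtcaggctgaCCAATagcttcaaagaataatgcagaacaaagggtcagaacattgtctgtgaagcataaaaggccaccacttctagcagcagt

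The windows of Hba-a1 and Hba-a2 shared an unbroken run of 117 bases, offset because their annotated starts differ, so these promoters are the same sequence over nearly the whole window. Those of Hbb-bs and Hbb-bt matched at 88 of 119 positions (73.9%) at the best ungapped offset, with 14 bases as the longest shared run. Adult and embryonic promoters of the same chain were far less alike, at 32.7% for Hba-a1 and Hba-x and 34.5% for Hbb-bs and Hbb-y. Pairs of an alpha-type and a beta-type promoter gave values of the same size. They ran from 29.9% for Hba-a2 and Hbb-y to 40.5% for Hbb-bt and Hba-x, so these percentages show no likeness particular to a chain. A CACCC match was present in all 6 windows, against 31.7% of the 32851 promoter windows of the same length in the table. A CCAAT match was present in 5 windows, all but Hba-x, against 21.3% of all windows, and TATAA in 5, all but Hbb-y, against 11.8%. GATAA was found only in Hba-x among the 6, against 10.5%. These matches describe letters in the window and were not tested as binding sites.

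Intensities are given as deposited, in arbitrary units on a linear scale. A probe set counted as measured when it exceeded 101.1 in at least 1 array, the 95th percentile of 80 olfactory and vomeronasal receptor probe sets, which were taken as silent in spleen. By that level, 45.3% of all probe sets were above it in CD45-negative cells and 47.7% in CD45-positive cells. A value at or under that level was replaced by the level, and differences so obtained are written "at least". Differences are CD45-negative minus CD45-positive on the log2 scale, and 4-fold or more was counted as higher or lower. Of the 15 globin probe sets, 13 were measured, 2 were at least 4-fold higher in the CD45-negative array and 0 lower, which is 15.4% of those measured. The 13 include 6 embryonic ones that could not pass 4-fold, because none of their values reached 4 times the level. Over all 25529 measured probe sets, 7.2% were higher and 13.9% lower by that rule. The median difference of the measured globin probe sets was 0.57, against -0.19 for all measured probe sets. That median falls on a bound, the one of 1437990_x_at (Hbb-bh1). Without a detection level the median over all 15 was 1.46, against 0.07 for all probe sets. In raw intensity 14 of the 15 were brighter in the CD45-negative array, against 51.6% of all probe sets and 54 of the 80 silent receptor probe sets (67.5%). For 6 of the 13 measured globin probe sets the difference is only a bound, because 1 of the 2 values lay under the level, and the other 7 were all brighter in the red cell sample.

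**Figure D1:**
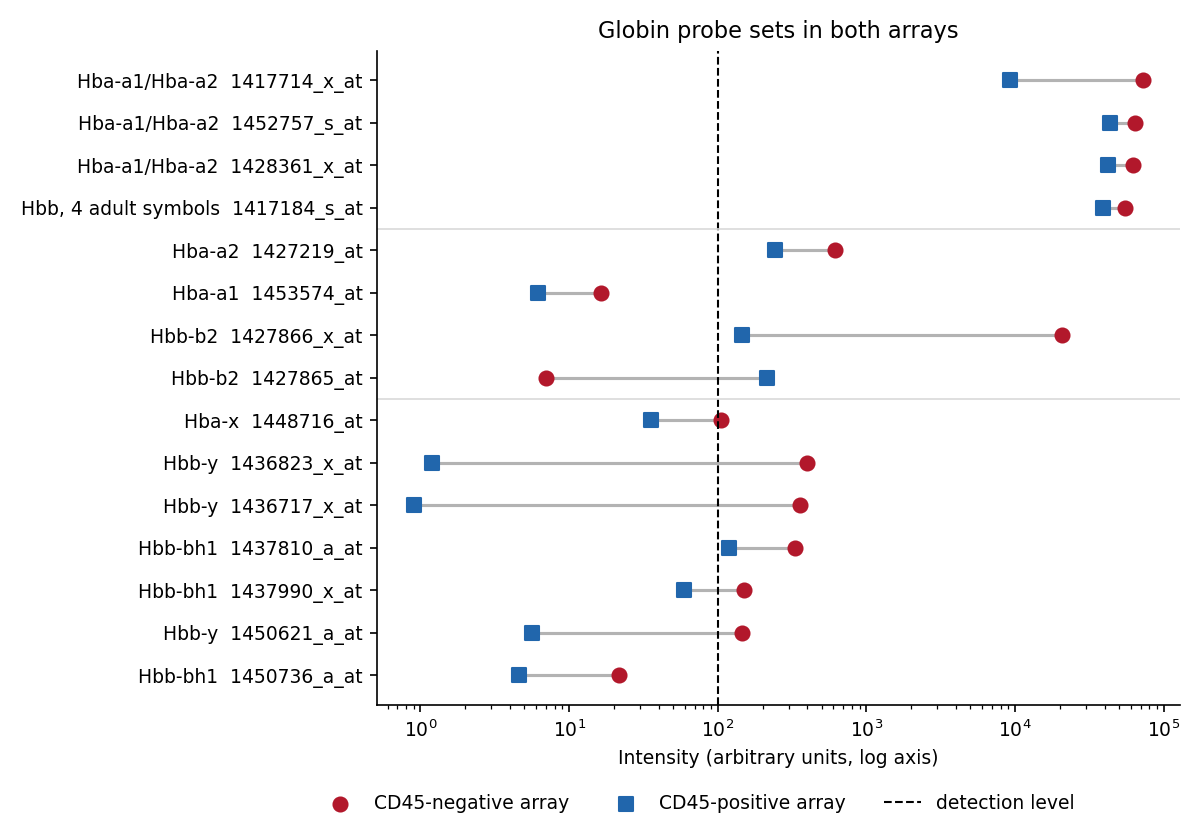
Intensity of each of the 15 globin probe sets (log axis, arbitrary units) in CD45-negative (red circles) and CD45-positive cells (blue squares), grouped into adult with several symbols, adult with 1 symbol and embryonic, with the detection level of 101.1 dashed. The 4 probe sets with several symbols lie far above all others in the CD45-positive array, from 9234 to 43405.

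Adult alpha globin was read by 3 probe sets that carry both Hba-a1 and Hba-a2, and all 3 were very bright. Probe set 1452757_s_at stood at 64400 in CD45-negative cells and 43405 in CD45-positive cells, a difference of 0.57. Probe set 1428361_x_at stood at 61806 against 42432, a difference of 0.54. Both therefore gave a high signal in the white cell sample as well, at 67.4% and 68.7% of the value in the red cell sample. The third, 1417714_x_at, stood at 72863 against 9234, a difference of 2.98 (7.89-fold). Its signal in the CD45-negative array was like that of the other two, but in the CD45-positive array it was 12.7% of that. Probe sets for the same pair of genes thus gave answers that ranged over 2.44 on the log2 scale. Across the array, measured probe sets that name 1 gene alone had a pooled SD of 0.83 over 5474 genes, with low values set to the level. That SD is not replicate error, and it is a different measure from a range over 3 probe sets.

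Adult beta globin was read by 1 probe set for Hbb-bt, Hbb-bs, Hbb-b2 and Hbb-b1 together. This probe set, 1417184_s_at, stood at 54742 in CD45-negative cells and 38897 in CD45-positive cells, a difference of 0.49 (1.41-fold). It behaved like the closer alpha probe sets, with 71.1% of the red cell signal in the white cell sample. Under quantile normalization the differences of these 3 close probe sets shrank to 0.18 for 1417184_s_at, 0.21 for 1428361_x_at and 0.24 for 1452757_s_at. They kept their sign under each scaling that was tried. In bulk RNA such as this, fewer cells of a type and less RNA per cell cannot be told apart.

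The 3 close probe sets lay near the top of both arrays. The highest value of any probe set was 104603 in the CD45-negative array, which was 2.41 to 2.69 times the CD45-positive values of 1452757_s_at, 1428361_x_at and 1417184_s_at. A 4-fold difference of these probe sets would have needed a value above any in that array. This maximum is an observed value and not a measured limit of the scale. Of the 121 probe sets at or above 54742 in the CD45-negative array, the median difference was 0.51, and 61 of them carry symbols of cytosolic ribosomal proteins, which both kinds of cell make. The globin differences of 0.49 to 0.57 sat near the median of that group, which was chosen by brightness in the CD45-negative array. Of the 156 probe sets at or above 38897 in the CD45-positive array, 115 carry such symbols, and the median difference was 0.11. There the globin differences lay above the upper quartile of 0.35. In that group 15 were at least 4-fold lower, and none could be 4-fold higher. Its CD45-positive values start at 38897, and the highest CD45-negative value, 104603, is 2.69 times that. Of the 121, 29 were at least 4-fold higher and the largest difference was 6.05. All 29 lay under 38897 in the CD45-positive array, so they do not bear on probe sets bright in both arrays. Among the 156 the highest difference toward the CD45-negative array was 0.87. Whether scanner saturation plays a part was not tested, because the table has no saturation flag.

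**Figure D2:**
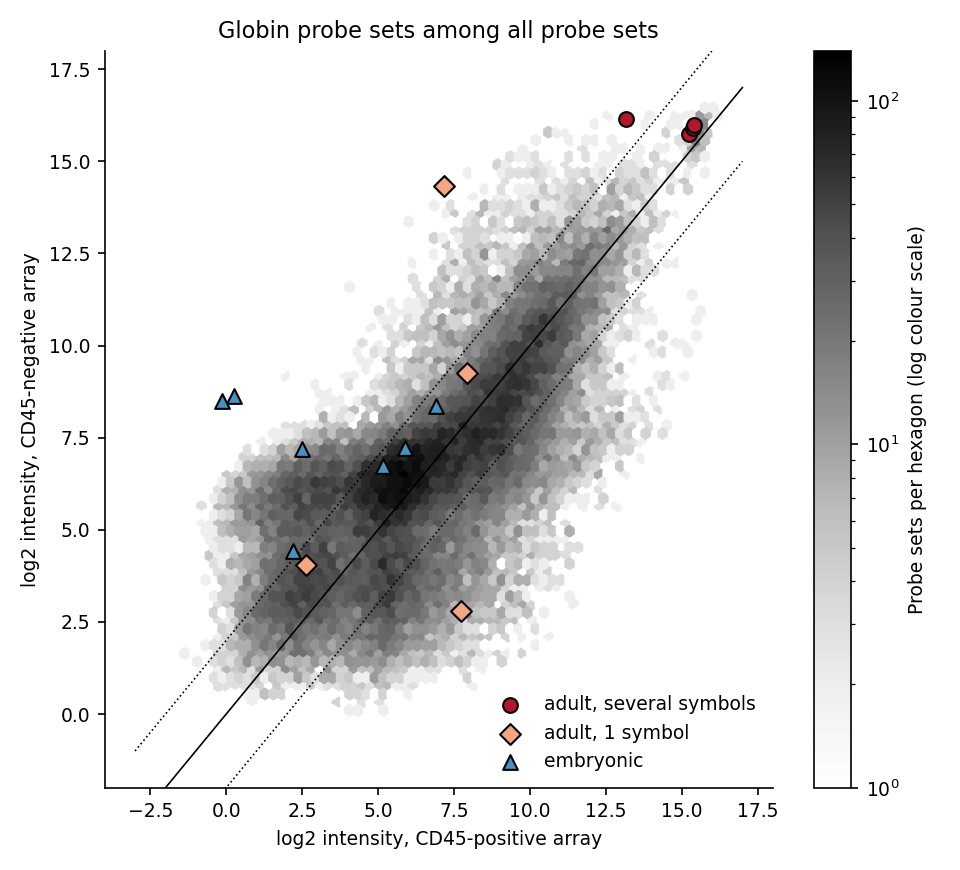
All 45037 probe sets by log2 intensity in the CD45-positive array (horizontal) and the CD45-negative array (vertical), shaded by the number per hexagon, with adult globin probe sets with several symbols (red circles), with 1 symbol (orange diamonds) and embryonic ones (blue triangles). The solid line marks equal intensity and the dotted lines 4-fold. Of the circles, 3 sit at the upper right end of the cloud close to the line and 1 lies above the 4-fold line.

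The white cell sample also held RNA of other red cell genes, at a smaller share of the red cell signal than the 3 close globin probe sets gave. Of the 8 red cell markers listed, 6 had a value, and their CD45-positive intensity was 0.979% to 6.83% of the CD45-negative one. Slc4a1, the anion exchanger band 3, stood at 99589 in the CD45-negative array against 3562, and Epb42, protein 4.2 of the membrane skeleton, at 25035 against 245. Tfrc, the transferrin receptor, stood at 64930 against 4433. All 6 exceeded the level in CD45-positive cells and 0 were listed at 0, and their summed intensity was 303247 against 10029. Not every globin probe set gave a larger share than the markers, since 1427866_x_at, at 0.698%, lay under all 6. The part of red cell RNA in the globin signal of the CD45-positive array was not tested.

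In the other direction, white cell markers were low in the red cell sample. Of 10 listed, 8 had a value, 7 were at least 4-fold lower and 0 higher, and their summed intensity was 4640 in CD45-negative cells against 179867 in CD45-positive cells. Ptprc, which encodes CD45 and defined the sort, stood at 423 against 32147, which checks the labels. Cd3d of the T cell receptor (18.4) and Itgam, an integrin of myeloid cells (70.9), did not reach the detection level in CD45-negative cells. The other white cell markers with a value exceeded it there, from 128.9 for Cd3e to 1889 for S100a8. Platelet markers were on the red cell side, with 4 of 4 at least 4-fold higher and a summed intensity of 26642 against 1380. Their part in the globin values was not tested.

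**Figure D3:**
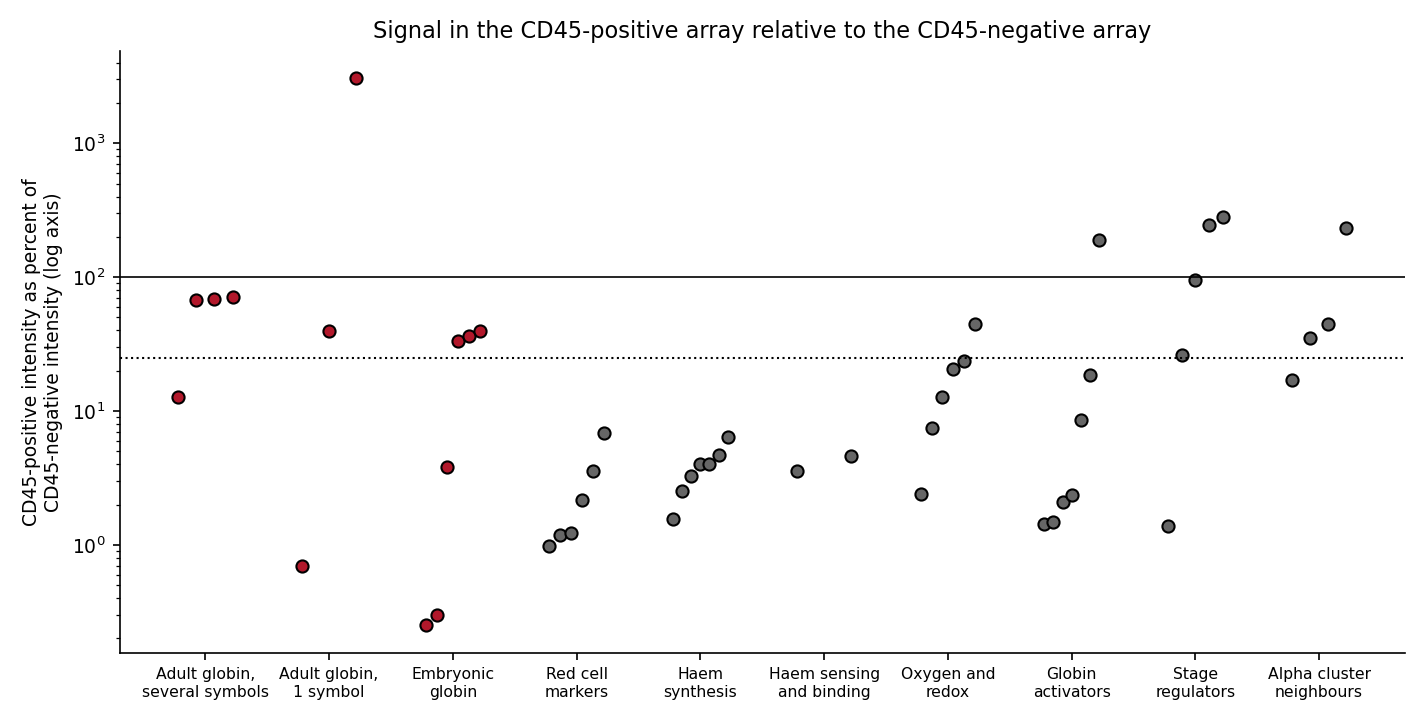
CD45-positive intensity as a percentage of CD45-negative intensity (log axis) for each measured globin probe set (red) and for measured genes of the comparison groups (grey, each gene by its brightest probe set). The solid line marks equal intensity and the dotted line 25%, that is 4-fold. Intensities are plotted as deposited, so points with a value under the detection level do not measure the change. The adult globin probe sets with several symbols lie at 12.7% to 71.1%, the red cell markers at 0.979% to 6.83%.

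Probe sets named for a single adult gene gave values that did not match each other. For Hbb-b2, 1427866_x_at stood at 20774 in CD45-negative cells and 145 in CD45-positive cells, a difference of 7.16 (143-fold), the largest among the members above the level in both arrays. The second probe set of that gene, 1427865_at, stood at 7.0 against 215, under the level in CD45-negative cells and at least 2.12-fold lower there. The 2 probe sets of Hbb-b2 therefore pointed in opposite directions, and no direction is given for that gene. Hbb-b2 belongs to the haplotype that C57BL/6 does not carry, and which transcript either probe set detects in these mice was not tested. Without that probe set and the others whose identifiers end in _x_at or _s_at, endings that mark probes shared between transcripts, 0 of the 5 measured globin probe sets were at least 4-fold higher.

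For the alpha chain, Hba-a2 alone was read by 1427219_at at 611 in CD45-negative cells and 244 in CD45-positive cells, a difference of 1.32 (2.51-fold). Hba-a1 alone was read by 1453574_at at 16.5 against 6.2, neither of which reached the level. The brightness of different probe sets depends on where and how well their probes bind, so these values are not set against those of the shared alpha probe sets. Neither value shows that a single alpha gene was weakly expressed.

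Embryonic globins were dim in both arrays. All 7 of their probe sets were brighter in the CD45-negative array, where the silent receptor probe sets also read higher, with a median of 33.6 against 17.5. Of these, 6 were measured and 0 were at least 4-fold apart by the common detection level. None could be, because none of their values reached 4 times that level, so this count says nothing about the embryonic chains. The range was 21.7 to 397 in CD45-negative cells and 0.9 to 119 in CD45-positive cells, where 1 of 7 exceeded the level. The receptor probe sets had a 95th percentile of 127 in CD45-negative and 73.5 in CD45-positive cells. In the CD45-negative sample 2 probe sets of Hbb-y and 1 of Hbb-bh1, at 329 to 397, lay well above that, and the other 4, at 21.7 to 150.1, lay near or under it.

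Hbb-y, the epsilon-y chain of yolk sac red cells, had the brightest embryonic probe sets. These, 1436823_x_at and 1436717_x_at, have the ending _x_at, which marks probes shared between transcripts. Whether they also read the bright adult Hbb transcripts was not tested. Probe set 1436823_x_at stood at 397 in CD45-negative cells and 1.2 in CD45-positive cells, and 1436717_x_at at 359 and 0.9. The third, 1450621_a_at, stood at 145 and 5.6, close to the CD45-negative array's own level of 127. All 3 were above the level in the red cell sample and under it in the white cell sample, so only lower bounds hold. They were at least 3.93-fold, at least 3.55-fold and at least 1.44-fold higher. For 1436823_x_at and 1436717_x_at the bound passed 4-fold with a level set for each array (2.43 and 2.29 on the log2 scale) and under quantile normalization (2.19 and 2.06), and fell to 1.31 and 1.16 with a stricter level of 160.4, the receptors' 99th percentile. The deposited values had ratios of 331-fold and 399-fold, but values near 1 are far under what silent probe sets read, and that ratio is not a measure of the change.

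Hbb-bh1, the beta-H1 chain, also varied between its probe sets. Probe set 1437810_a_at stood at 329 in CD45-negative cells and 119 in CD45-positive cells, a difference of 1.46 (2.76-fold). Probe set 1437990_x_at stood at 150.1 against 59.0, at least 1.48-fold higher, and 1450736_a_at, at 21.7 and 4.6, reached the level in neither array. Hba-x, the zeta chain, stood at 106 in CD45-negative cells and 35.5 in CD45-positive cells by its only probe set, 1448716_at. That is just above the common level and under the CD45-negative array's own level of 127, so its signal cannot be told from that of silent probe sets.

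**Figure D4:**
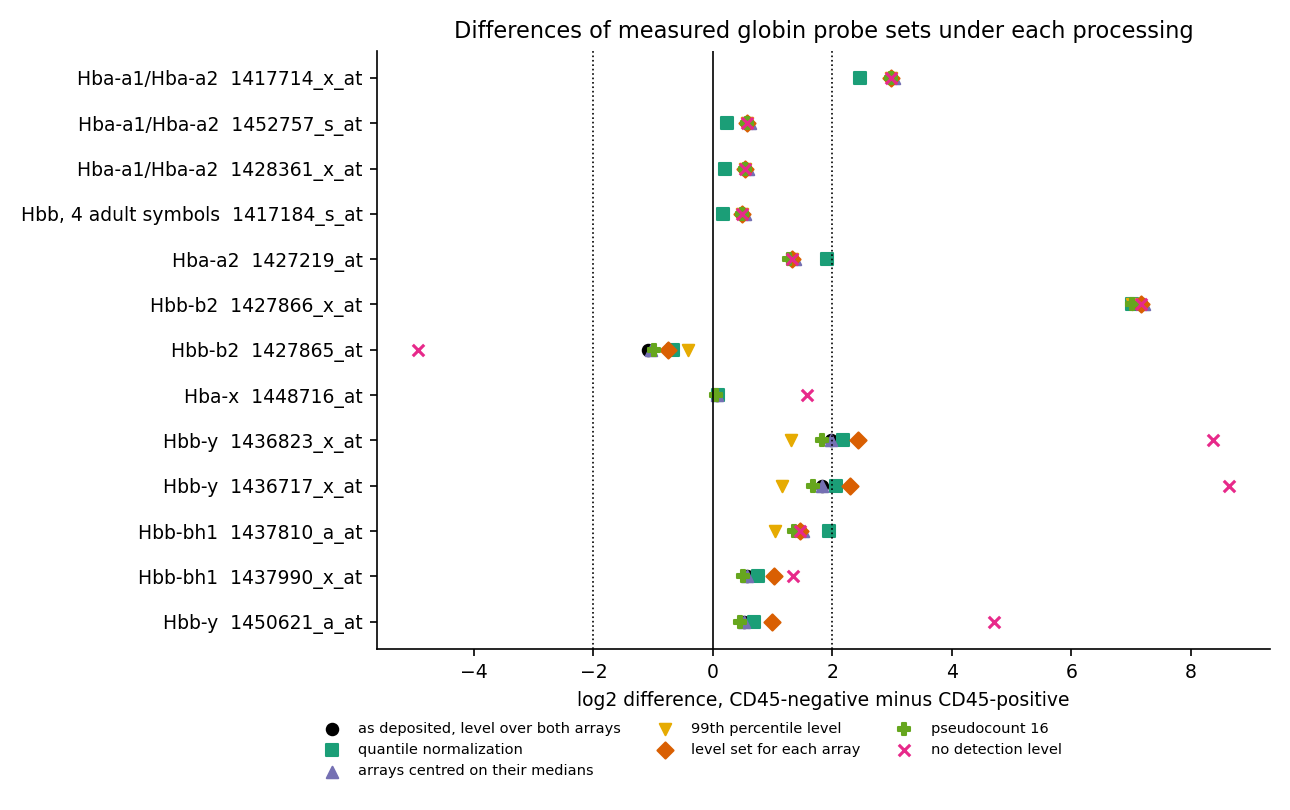
Difference of each of the 13 measured globin probe sets (CD45-negative minus CD45-positive, log2 scale) as deposited and under 6 other ways of scaling or of treating low values, with dotted lines at 4-fold. The adult probe sets with several symbols keep their sign and shift most under quantile normalization, to 0.18, 0.21, 0.24 and 2.46. The Hbb-y probe sets and 1427865_at move to 8.64, 8.37, 4.70 and -4.94 when no detection level is set.

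Genes that work with globin were set beside it from a list of 37 genes in haem synthesis, haem sensing, oxygen and redox handling, globin control, the alpha cluster's neighbourhood and other globins. Of these, 35 had a value by the brightest probe set that names the gene alone, and 32 were measured. Of the 32, 22 were at least 4-fold higher in the CD45-negative array and 0 lower, with a median difference of 3.64, against 8.31% higher and 16.8% lower among all 11793 measured genes. In the 22 higher genes the CD45-positive signal was 1.39% to 23.6% of the CD45-negative one, with a median of 3.99%. The sort for a red cell marker favours this outcome, and the list is no independent evidence of it.

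All 7 measured haem synthesis genes were at least 4-fold higher. Alas2, which makes the first committed intermediate in red cells, stood at 69687 in the CD45-negative array against 1082, and Fech, which inserts iron into the ring, at 77605 against 1976. Their CD45-positive signal was 1.55% and 2.55% of the CD45-negative one. Uros (30.7-fold), Alad (25.1-fold), Cpox (25.0-fold), Ppox (21.3-fold) and Urod (15.8-fold), further enzymes of the pathway, were also higher. Probe sets disagreed for some of these, from 0.63 to 5.33 for Fech, 2.79 to 5.32 for Cpox and 0.00 to 4.41 for Ppox. Eif2ak1, the kinase that stops globin translation when haem is short, stood at 30155 against 1390 (0.00 to 4.70 over its 5 probe sets), and the haem-binding protein Hebp1 at 7823 against 278.

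Of 6 genes of oxygen and redox handling, 5 were at least 4-fold higher. Bpgm, which makes the ligand that lowers the oxygen affinity of haemoglobin, was 41.4-fold higher, and Prdx2, an abundant red cell peroxidase, 13.3-fold. The catalase gene Cat was 7.86-fold, Cyb5a 4.89-fold and Gpx1, a glutathione peroxidase, 4.24-fold higher. Cyb5r3, which with Cyb5a reduces methaemoglobin, stood at 5520 against 2448, a difference of 1.17. Under quantile normalization the differences of Cyb5a and Gpx1 were 1.88 and 1.57, under 4-fold.

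Among factors that activate globin genes, 6 of 7 were at least 4-fold higher. Klf1, which binds CACCC-type motifs, stood at 42791 against 614, a difference of 6.12. Tal1 (67.1-fold), Nfe2 (47.8-fold), Gata1 (42.5-fold) and the Gata1 partner Zfpm1 (11.7-fold) were higher too. Lmo2, a bridging protein of the Tal1 complex, was 5.42-fold higher, or 1.97 on the log2 scale under quantile normalization. Ldb1, which joins enhancer and promoter in that complex, went the other way at 839 against 1601, a difference of -0.93.

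Genes that set the embryonic, fetal or adult stage of globin use were mixed. Of 6, 5 were measured and only Sox6, a repressor of embryonic globin, was at least 4-fold higher, at 12683 against 176. Bcl11a, another repressor of embryonic and fetal globin, stood at 927 in CD45-negative cells and 2276 in CD45-positive cells, Myb at 678 against 1909 and Zbtb7a at 355 against 340. Igf2bp1, a fetal-stage RNA-binding protein, stood at 193.5 against 51.1 (at least 1.91-fold higher), and Lin28b was under the level in both. The brightest probe sets of Bcl11a and Myb were thus dimmer in the red cell sample, by less than 4-fold, and over all probe sets the differences ran from -2.02 to 0.00 for Bcl11a and from -1.75 to -1.16 for Myb.

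Of the 4 listed neighbours of the alpha cluster, 1 was at least 4-fold higher. Nprl3, whose introns hold the main alpha globin enhancers, stood at 3061 against 523, a difference of 2.55 (5.86-fold). Mpg (2624 against 915) and Snrnp25 (3238 against 1450) were brighter in the red cell sample by less than 4-fold, and Rhbdf1 was dimmer at 179 against 415. Of the globins outside these clusters, neuroglobin (Ngb) stood at 147 against 9.8 by one probe set, close to the level, while myoglobin (Mb) and cytoglobin (Cygb) were under the level in both arrays. With the detection level, no globin outside the alpha and beta clusters could pass 4-fold, because none of their values reached 4 times that level. Without a level the difference of Ngb was 3.90.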

How the data were processed

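For each array, the authors deposited a linear intensity for every probe set. The submitters' processing notes name GCRMA and Partek 6.6 without saying which values each made, so the scaling step is not settled, and no genome build is given for the array. Samples were grouped by their titles, 1 array each, and this number limits the precision of every value. Symbols came from GEO's platform annotation, in which 34945 probe sets had 1 symbol, 932 several and 9160 none. Members were taken from the symbol field, and genes of the comparison list by the probe set, among those with 1 symbol, with the highest mean log2 value. Log2 was taken of the deposited values, with nothing added and the arrays not rescaled. No test was possible. The globin probe sets, the gene lists and the 4-fold rule were chosen with earlier results of these data known. Every member is reported, and all list genes past 4-fold are named. Promoter sequences are RefSeq's (GRCm38.p6). Scripts ran under Python 3.11.15 with pandas 2.3.3, numpy 2.4.6 and matplotlib 3.10.9, and the counting was tested on simulated data.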

Additional observations from a re-analysis of the deposited data

How the results depend on the processing

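With 1 array per group no array could be left out. No paired analysis was possible because the groups share fewer than 2 replicate numbers. The count of 2 globin probe sets at least 4-fold higher became 4 under quantile normalization and 4 with a level set for each array, in both cases by the addition of 1436717_x_at and 1436823_x_at (Hbb-y). Without a detection level it became 6, with 1 lower (1427865_at) and a median difference of 1.46 over all 15. Among probe sets with 1 symbol it was 1, and without identifiers ending in _x_at or _s_at it was 0 of 5 measured. It stayed at 2 with arrays centred on their medians, with the 99th percentile as the level (10 measured) and with 16 added to each intensity. The list count of 22 higher genes ran from 19 to 24 over its alternatives, with 0 lower in each. Over all measured probe sets, quantile normalization moved the median difference from -0.19 to 0.07 and the share of higher among the 4-fold differences from 34.2% to 46.9%, and the share was 48.9% without a detection level. With the mean of probe sets the difference of Cyb5r3 was 2.03, just past 4-fold.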
